A study of Macaca mulatta with 6 samples.

Results

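Heat shock and endoplasmic reticulum (ER) chaperones were followed in the temporal retina of rhesus macaques, 24 h after 1 optic nerve had been irradiated in the orbit with a gamma knife. The list held 40 genes, chosen by symbol. A gene was taken when the platform annotation gave a probe set its symbol alone, and 28 of the 40 genes were found in this way, out of 14132 genes named on the array. The brightest of its probe sets stood for each gene, and all 65 probe sets of the 28 genes were examined. The other 12 genes (HSPA1A, HSPA1B, HSPA2, HSPB1, HSPD1, HSPE1, HSPA5, HYOU1, DNAJB9, DNAJC3, CALR and SEL1L) were not analysed here. The inducible Hsp70 genes HSPA1A and HSPA1B and the ER Hsp70 that is also called BiP (HSPA5) are therefore missing from every count below.

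The treated group was 3 retinas on the side of the irradiated nerve, and the control group was the 3 contralateral retinas of the same male monkeys, aged 8 to 10 years, with no genetic change in either group. The nerve received 15 Gy, and the study's dose plan left 3 Gy at the treated-side eyeball and 1 Gy at the control-side eyeball, so that the control retinas were not free of radiation. The treated eye was the left one in 2 monkeys and the right one in 1. The temporal part of each retina, dissected without its pigment epithelium, was hybridized to 1 array, which gave 6 arrays and 3 treated-control pairs.

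Chaperones bind proteins that are unfolded or only partly folded. In the cytosol, Hsp70 proteins work with J proteins that bring them clients and start their ATP cycle, with Hsp110 proteins that exchange their nucleotide, and with Hsp90, to which STIP1 hands clients on. When unfolded protein builds up there, heat shock factor HSF1 turns on genes of this set. The ER has a set of its own, with GRP94, lectin chaperones for glycoproteins and disulfide isomerases, and the sensors IRE1, PERK and ATF6 raise it through the unfolded protein response. Photoreceptors make large amounts of opsin in the ER, and chaperones are widely studied in retinal degeneration and optic nerve injury.

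No chaperone gene passed the test in the treated retinas. The paired limma model, with p-values adjusted over 52024 probe sets by Benjamini-Hochberg, put 58 of them (0.111%) under an adjusted p of 0.05, and put there 0 of the 28 brightest probe sets and 0 of all 65. The smallest adjusted p among the 28 was 0.619, for HSPH1. Before adjustment, 6 of the 28 genes had a p under 0.05 with a higher signal in the treated retinas (HSPH1, PDIA6, SDF2L1, XBP1, BAG3 and PDIA4) and 1 with a lower signal (HSPA4), shares of 21.4% and 3.57%. The same threshold took 2.97% of all probe sets as higher and 3.77% as lower, and 5.02% and 3.01% of the brightest probe sets of the named genes. The number higher was 0 in the model without the replicate block and 0 without the variance trend. It was 6 after median centring of the arrays and 7 after quantile normalization. With an offset of 32 added to the linear signal it was 6, and with a minimum mean log2 signal of 5 it was 5. It was 1 without replicate 1 (HSPH1), 5 without replicate 2 and 3 without replicate 3. By the methods' paired t-test it was 3 (HSPB8, DNAJB11 and PDIA6, against a share of 2.68% of all probe sets), and 0 chaperone genes were lower by that test.

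The differences were small and mostly above 0. The treated minus control difference of the log2 signal, called the log2 fold change here, was above 0 for 25 of 28 genes (89.3%), compared with 45.4% of all probe sets, 55.5% of the brightest probe sets of named genes and 62.3% of those with a mean log2 signal of at least 9. The median over the 28 genes was 0.13, against −0.04 for all probe sets and 0.03 for the brightest probe sets of named genes. Of the 28 genes, 12 (42.9%) were higher in 3 of 3 pairs and 1 (HSPA4) was lower in 3 of 3, where 13.0% and 16.1% of all probe sets were. Among the brightest probe sets of named genes 19.3% were higher and 13.6% lower in 3 of 3 pairs, and 24.2% and 13.2% among those with a mean log2 signal of at least 9. In 0 of 28 genes did all treated retinas lie above all control retinas, as they did for 3.11% of all probe sets. The absolute log2 fold change was under 0.5 for 26 of the 28 genes, and for 27 of them the 95% interval lay between a halving and a doubling, that is within a log2 fold change of 1 on either side of 0. The exception was ERN1.

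**Figure D1:**
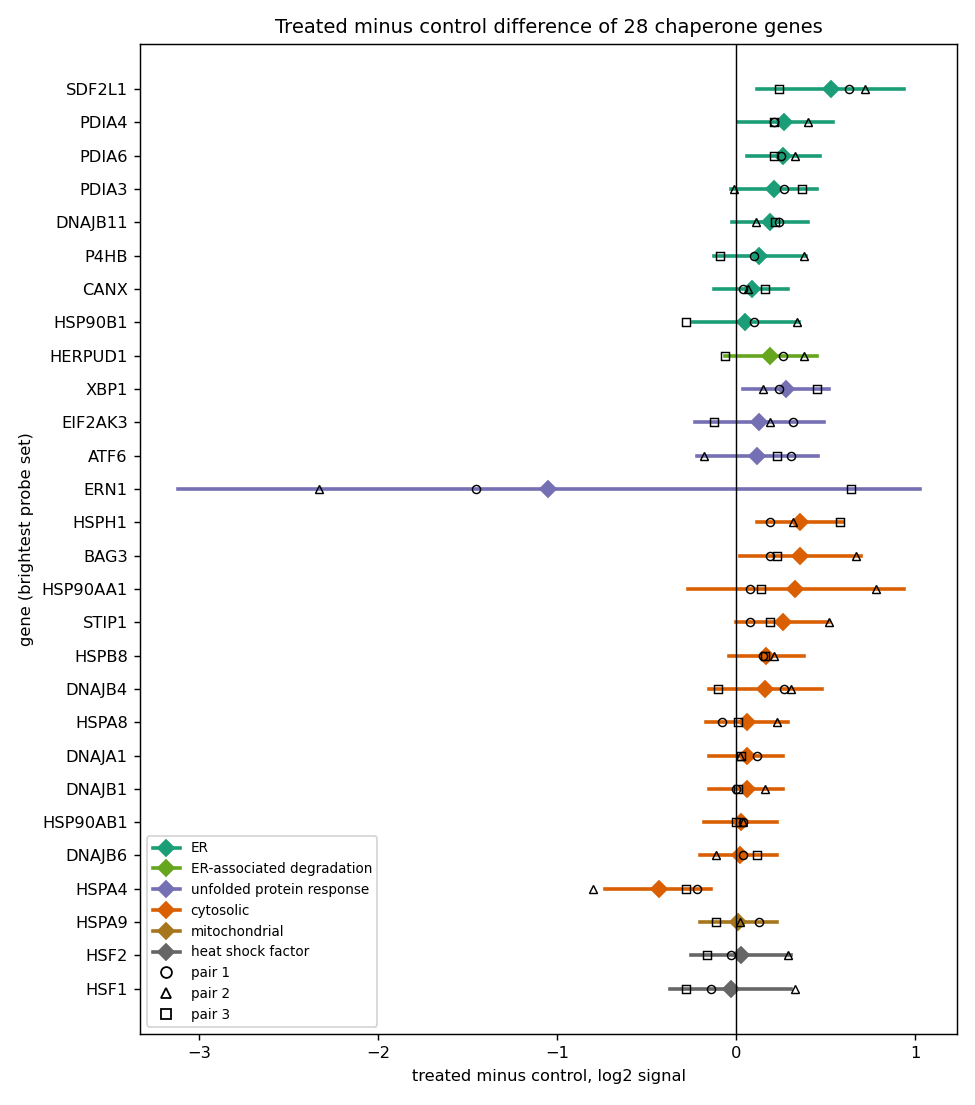
Treated minus control difference of the log2 signal for the brightest probe set of each of 28 genes, coloured by compartment or role. Diamonds are the paired estimates with lines for the 95% interval, open symbols are the 3 pairs, and 25 of the 28 diamonds lie above 0.

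All 8 ER chaperones measured had a log2 fold change above 0, between 0.05 and 0.53, with a median of 0.20. SDF2L1, an ER protein that works with the ER J proteins, had log2 signals of 8.47, 9.09 and 8.15 in the treated retinas of replicates 1 to 3, against 7.83, 8.38 and 7.91 in their control retinas. It was higher in the treated retina of every pair, with overlap between the groups because the control retina of replicate 2 lay above the treated retina of replicate 3. Its log2 fold change was 0.53 ± 0.18 (SE, n = 3 pairs), with an interval of 0.12 to 0.94, and limma gave an adjusted p of 0.692.

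Members of the protein disulfide isomerase family make and reshuffle disulfide bonds in proteins that enter the ER. PDIA6 had log2 signals of 11.82, 12.10 and 11.76 in the treated retinas, against 11.57, 11.77 and 11.55 in the control retinas. The 3 pair differences were close to each other, and the highest control retina, that of replicate 2, lay just above the lowest treated one. For PDIA6 the log2 fold change was 0.26 ± 0.09 (SE, n = 3 pairs; limma adjusted p = 0.688).

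PDIA4 had 9.72, 10.16 and 9.68 in the treated retinas, against 9.52, 9.75 and 9.48 in the control retinas, again on the log2 signal scale. As with PDIA6, every pair was higher on the treated side and replicate 2 had the highest retina of each group. The paired estimate for PDIA4 was a log2 fold change of 0.27 ± 0.11 (SE, n = 3 pairs; limma adjusted p = 0.736).

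The other ER chaperones were closer to 0. Their log2 fold changes were 0.21 for PDIA3, an isomerase that works with the glycoprotein lectins, 0.13 for P4HB, the founding isomerase, 0.09 for CANX (calnexin, a membrane lectin) and 0.19 for DNAJB11, an ER J protein. HSP90B1, which encodes the ER Hsp90 GRP94, had log2 signals of 11.51, 11.60 and 11.28 in the treated retinas, against 11.41, 11.25 and 11.56 in the control retinas. Replicate 3 went the other way from replicates 1 and 2, and the groups overlapped throughout. HSP90B1 had a log2 fold change of 0.05 ± 0.13 (SE, n = 3 pairs; limma adjusted p = 0.943), which became −0.09 without replicate 2 and −0.44 as the mean of both its probe sets. The second of these was dim, with log2 signals of 3.69 to 6.22.

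Among the sensors and transducers of the unfolded protein response, 3 of 4 genes were above 0. XBP1, the transcription factor whose messenger RNA is spliced by IRE1, had log2 signals of 11.35, 10.71 and 10.62 in the treated retinas, against 11.11, 10.57 and 10.18 in the control retinas. It was higher on the treated side of every pair, but replicate 1 was so much higher in both retinas that the groups overlapped. On the paired fit its log2 fold change was 0.28 ± 0.10 (SE, n = 3 pairs; limma adjusted p = 0.727). The probe sets measure the gene's total transcript, and the spliced form was not measured.

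ERN1, which encodes IRE1, had log2 signals of 3.06, 2.83 and 3.29 in the treated retinas, against 4.51, 5.16 and 2.65 in the control retinas. Most of these lay under a log2 signal of 5, the range in which 22.6% to 29.7% of each array's probe sets lay and in which MAS 5.0 values scatter. The log2 fold change of −1.05 had an interval of −3.12 to 1.03 (limma adjusted p = 0.817, n = 3 pairs), and it was −0.40 without replicate 2, −1.89 without replicate 3 and −0.37 with an offset of 32 added to the linear signal, so that neither a rise nor a fall by a log2 of 1 was excluded for this gene. The remaining values were 0.13 for EIF2AK3, which encodes PERK, 0.12 for ATF6, and 0.19 for HERPUD1, a membrane protein of ER-associated degradation.

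Of 12 cytosolic chaperones measured, 11 had a log2 fold change above 0, and their median was 0.11. HSPH1, the Hsp110 that serves as nucleotide exchange factor for Hsp70, had log2 signals of 12.86, 12.33 and 11.89 in the treated retinas, against 12.67, 12.01 and 11.31 in the control retinas. Its treated retina was the higher one in every pair, and yet the control retina of replicate 1 lay above the treated retinas of replicates 2 and 3. Its log2 fold change was 0.36 ± 0.10 (SE, n = 3 pairs), with an interval of 0.12 to 0.60. All 6 probe sets of HSPH1 were above 0.

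BAG3, a co-chaperone that links Hsp70 and small heat shock proteins to autophagy, had log2 signals of 9.74, 9.24 and 8.93 in the treated retinas, against 9.55, 8.58 and 8.70 in the control retinas. The difference was largest in replicate 2, and the control retina of replicate 1 lay above the treated retinas of the other replicates. BAG3 had a log2 fold change of 0.36 ± 0.15 (SE, n = 3 pairs; limma adjusted p = 0.734), which became 0.21 without replicate 2.

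HSPA4, also an Hsp110 family member and the only cytosolic chaperone below 0, had log2 signals of 13.06, 11.64 and 12.17 in the treated retinas, against 13.28, 12.45 and 12.45 in the control retinas. The treated retina was the lower one in every pair, most of all in replicate 2, while the treated retina of replicate 1 stayed above the control retinas of the other replicates. The log2 fold change was −0.43 ± 0.13 (SE, n = 3 pairs), with an interval of −0.73 to −0.14 and a limma adjusted p of 0.636, and it was −0.25 without replicate 2. All 6 probe sets of HSPA4 were below 0. The third to sixth brightest were nevertheless higher on the treated side in pair 3, by 0.01, 0.04, 0.60 and 0.06. The brightest probe sets of HSPA4 and HSPH1, close relatives with the same role, thus differed in opposite directions in 3 of 3 pairs.

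The constitutive Hsp70 and the stress-responsive Hsp90 were measured with unlike precision. HSPA8, which encodes the constitutive cytosolic Hsc70, had log2 signals of 13.60, 13.80 and 13.77 in the treated retinas, against 13.68, 13.57 and 13.75 in the control retinas. All 6 values lay close together, and the log2 fold change of 0.06 had an interval of −0.17 to 0.29 (limma adjusted p = 0.918, n = 3 pairs). HSP90AA1, the stress-responsive cytosolic Hsp90, had log2 signals of 8.40, 7.27 and 6.86 in the treated retinas, against 8.32, 6.49 and 6.73 in the control retinas. Both retinas of replicate 1 were above the other 4, and the difference within pairs was large only in replicate 2. Its log2 fold change was 0.33 ± 0.26 (SE, n = 3 pairs; limma adjusted p = 0.801), with an interval of −0.27 to 0.94, and it was 0.11 without replicate 2.

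The remaining cytosolic members had log2 fold changes between 0.02 and 0.26. They were 0.03 for HSP90AB1, the constitutive Hsp90, and 0.26 for STIP1, which joins Hsp70 to Hsp90. The J proteins DNAJA1, DNAJB1, DNAJB4 and DNAJB6 had 0.06, 0.06, 0.16 and 0.02, and the small heat shock protein HSPB8, a partner of BAG3, had 0.17. The mitochondrial Hsp70 HSPA9 had 0.01. HSF1, the main regulator of the heat shock response, had log2 signals of 9.19, 9.89 and 9.77 in the treated retinas, against 9.33, 9.56 and 10.05 in the control retinas. The pairs went both ways, with replicate 2 higher and replicates 1 and 3 lower on the treated side. The log2 fold change of HSF1 was −0.03 ± 0.15 (SE, n = 3 pairs; limma adjusted p = 0.977), and that of HSF2 was 0.03. The value for HSF1 became positive, 0.07, under median centring of the arrays, and was also positive without replicate 1 (0.03) or replicate 3 (0.10).

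**Figure D2:**
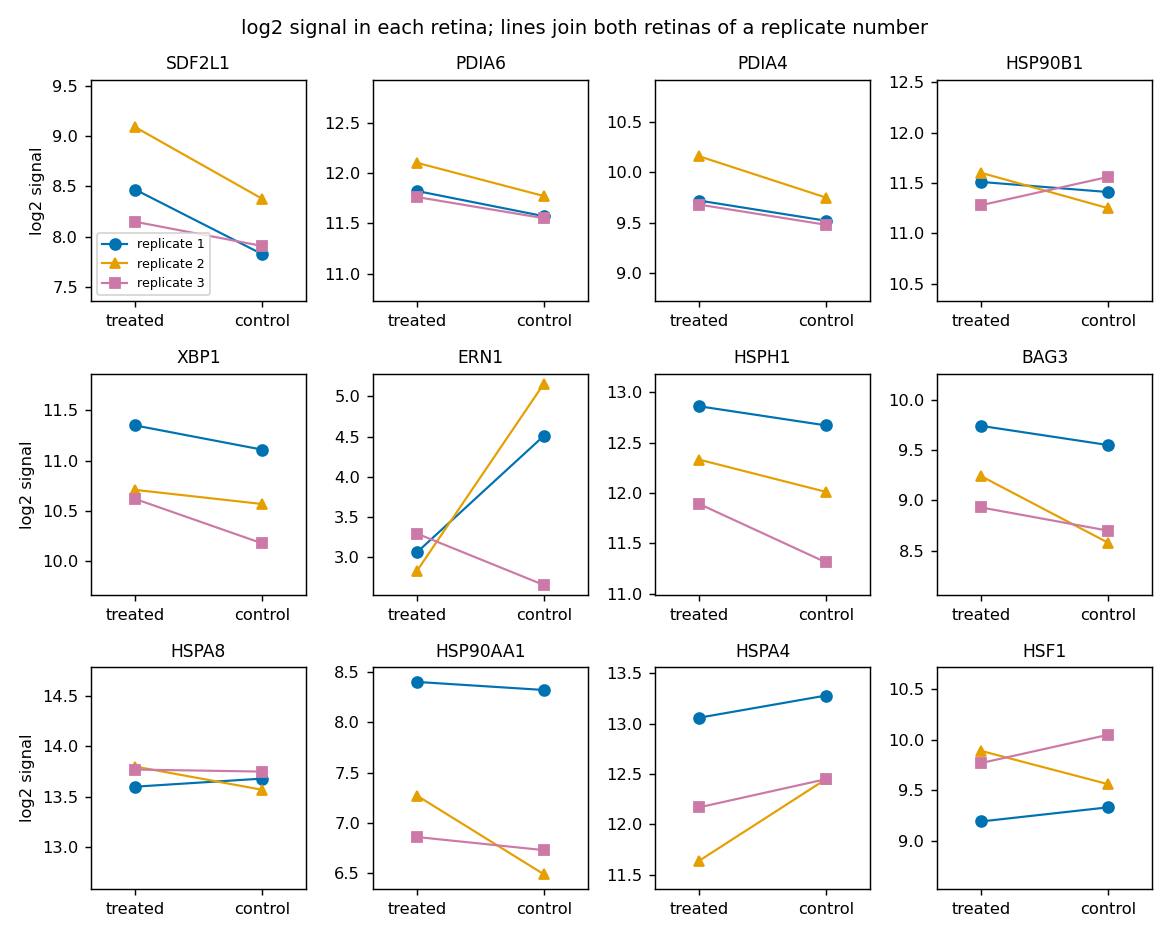
log2 signal of the brightest probe set of 12 genes in each retina, with treated retinas left of control retinas and lines joining both retinas of a replicate. Within a gene such as HSPH1 the 3 lines run nearly parallel and far apart, with pair differences of 0.19 to 0.58 and a range over replicates of 1.17.

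The ER chaperones lay slightly above the cytosolic ones. The median log2 fold change of the 12 cytosolic genes minus that of the 8 ER genes was −0.09. Within replicates 1 to 3 the medians of the pair differences were 0.08, 0.22 and 0.07 for cytosolic genes and 0.22, 0.34 and 0.21 for ER genes, so that the cytosolic median was the lower one by 0.15, 0.12 and 0.14. The order was therefore the same in 3 of 3 pairs, but the gap was small beside the range of single genes, which was −0.43 to 0.36 in the cytosol and 0.05 to 0.53 in the ER. The medians of all brightest probe sets of named genes were 0.04, 0.07 and −0.00 in the same pairs. Centring each array on its median moved the cytosolic median to 0.21 and the ER median to 0.30, since it added the same amount to the paired estimate of every gene, and it left the gap between them at −0.09. Most of that amount came from replicate 2, whose arrays had medians of 6.44 in the treated and 6.74 in the control retina.

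Replicates differed from each other more than the retinas of a pair did in most of these genes. For 21 of 28 genes the range of the replicate means exceeded the largest difference within a pair, and no share of all probe sets is given for this count. The replicate differences were looked at after the values were seen, by testing the replicate term of the same limma model. At an adjusted p under 0.05 that term called 9 of the 28 genes (32.1%), compared with 13.4% of all probe sets, 16.3% of the brightest probe sets of named genes and 28.4% of those with a mean log2 signal of at least 9. The 9 genes were DNAJB1 (adjusted p = 0.0042), HSPH1 (0.00426), STIP1 (0.00763), HSPA4 (0.00849), DNAJA1 (0.012), XBP1 (0.0124), HSP90AA1 (0.0257), BAG3 (0.0354) and HSPA9 (0.041). Thus, on the deposited values, 7 of 12 cytosolic chaperones and 0 of 8 ER chaperones had a replicate term past the threshold.

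In most of the cytosolic genes the difference took the same form. For 11 of the 12, all but HSPA8, replicate 1 had the highest signal both among the treated retinas and among the control retinas, and the same held for 1 of 8 ER chaperones (PDIA3). Over all members the count was 17 of 28 (60.7%), against 27.9% of all probe sets and 22.3% of the brightest probe sets of named genes. DNAJB1 and STIP1 show the size of it, with a range over replicates of 1.01 and 1.04 on the log2 scale and a log2 fold change of 0.06 and 0.26. HSPA9, the mitochondrial Hsp70, had the opposite order, with replicate 1 lowest in both groups.

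The replicate 1 arrays also stood apart as a whole. Their median log2 signals were 6.98 in the treated and 7.03 in the control retina, compared with 6.44 and 6.75 in the treated and 6.74 and 6.69 in the control retinas of replicates 2 and 3. Centring each array on its median reduced the cytosolic count from 11 to 2 of 12 and the ER count from 1 to 0 of 8, while the share among all named genes was 9.06%. Quantile normalization, which gives all arrays the same distribution, gave 12 of 12 cytosolic genes and 1 of 8 ER genes, with 17.4% of all named genes. The replicate term followed the same course, with 2 of 12 cytosolic genes (16.7%) past the threshold after median centring, when 21.4% of all named genes were, and 8 of 12 (66.7%) after quantile normalization, when 18.2% were. Of the ER chaperones the replicate term called 1 of 8 (12.5%) under either scaling, close to the cytosolic share after median centring. Over all members it called 5 of 28 (17.9%) after median centring. The high cytosolic signal of replicate 1 thus depended on the scaling, and its source was not tested.

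**Figure D3:**
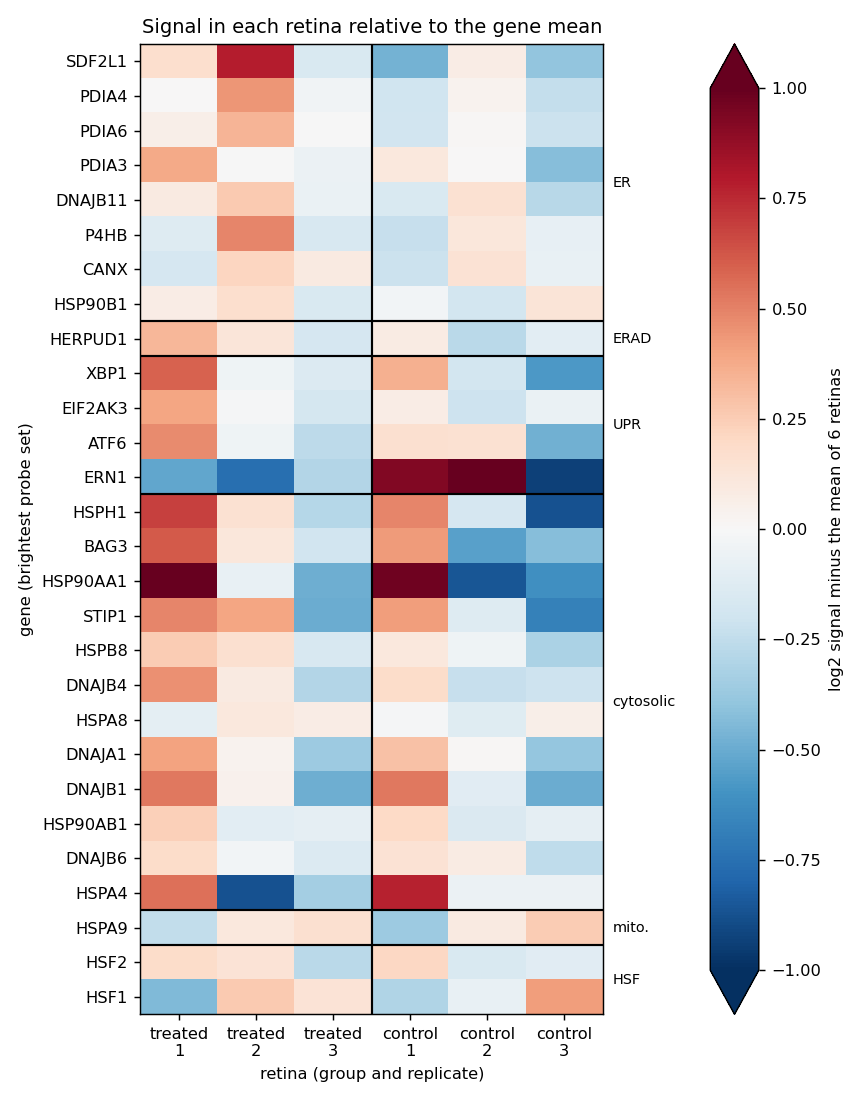
log2 signal in each retina minus the gene's mean over the 6 retinas, for 28 genes in rows and with treated retinas left of control retinas; ERAD is ER-associated degradation, UPR the unfolded protein response and HSF heat shock factors. Replicate 1 is high in both groups for 11 of 12 cytosolic genes and for 1 of 8 ER genes.

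The less bright probe sets told a less even story. Of the 28 genes, 17 had more than 1 probe set, with 37 beside the brightest. Of these 37, 21 (56.8%) were above 0, with a median of 0.09. Among the less bright probe sets of all named genes 44.8% were above 0, with a median of −0.04. The brightest probe sets of the same 17 genes had a median of 0.06, and 15 of the 17 were above 0. At an unadjusted limma p under 0.05, 6 of the 37 (16.2%) were higher and 1 (2.7%) was lower. The shares were 2.78% and 3.42% among the less bright probe sets of all named genes. In pairs 1 and 3 the median differences of the 37 were 0.08 and 0.16, where the brightest probe sets of the same 17 genes had 0.12 and 0.03. In pair 2 it was −0.25, where the brightest of the same genes had 0.16. The less bright probe sets of all named genes moved the same way in that pair, with a median of −0.16, and the treated array of replicate 2 had the lowest median signal, with 29.7% of its probe sets below 5 on the log2 scale, the highest share of the 6 arrays. The part of that array in the difference was not tested.

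Some of these probe sets had a larger difference than the one that stood for the gene, and they are named here after their values were seen. The second probe set of HSPB8 had log2 signals of 11.11, 10.78 and 10.20 in the treated retinas, against 10.20, 10.12 and 9.87 in the control retinas. The lowest treated value lay above the highest control value only in digits beyond these. Its log2 fold change of 0.63 ± 0.13 (SE, n = 3 pairs) had the smallest adjusted p of the 65 probe sets, 0.338 by limma, and the brightest probe set of HSPB8 had a log2 fold change of 0.17. The second probe sets of XBP1 and P4HB had log2 fold changes of 0.60 and 0.41, and both were higher in 3 of 3 pairs. Others went the opposite way, with 5 of the 37 (13.5%) lower and 11 (29.7%) higher in 3 of 3 pairs, against 15.4% and 12.3% of the less bright probe sets of all named genes. The lower ones were probe sets of HSP90B1 (−0.93), HSPA9 (−0.58), HSP90AB1 (−0.38), DNAJB6 (−0.31) and HSPA4 (−0.13), and of these genes only HSPA4 was also below 0 by its brightest probe set. That of HSP90AB1 was its dimmest, while its second brightest had 0.22, with means of 13.38 in treated and 13.16 in control retinas. This second one was higher in 3 of 3 pairs, as was another probe set of DNAJB6, also at 0.22.

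Some of the less bright probe sets, also named after their values were seen, differed widely between replicates. The third brightest probe set of HSPH1 had log2 signals of 10.91, 8.25 and 8.38 in the treated retinas, against 10.69, 8.77 and 7.55 in the control retinas. A probe set of HSPA4, next to last in brightness, had 10.51, 7.11 and 7.71 in the treated retinas, against 10.66, 8.08 and 7.11 in the control retinas. In both, the 2 retinas of replicate 1 lay far above the other 4. Over the 37 probe sets, the replicate term passed the threshold in 17 (45.9%), and replicate 1 was highest in both groups in 20 (54.1%). Among the 10824 less bright probe sets of all named genes these shares were 17.9% and 40.2%.

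**Figure D4:**
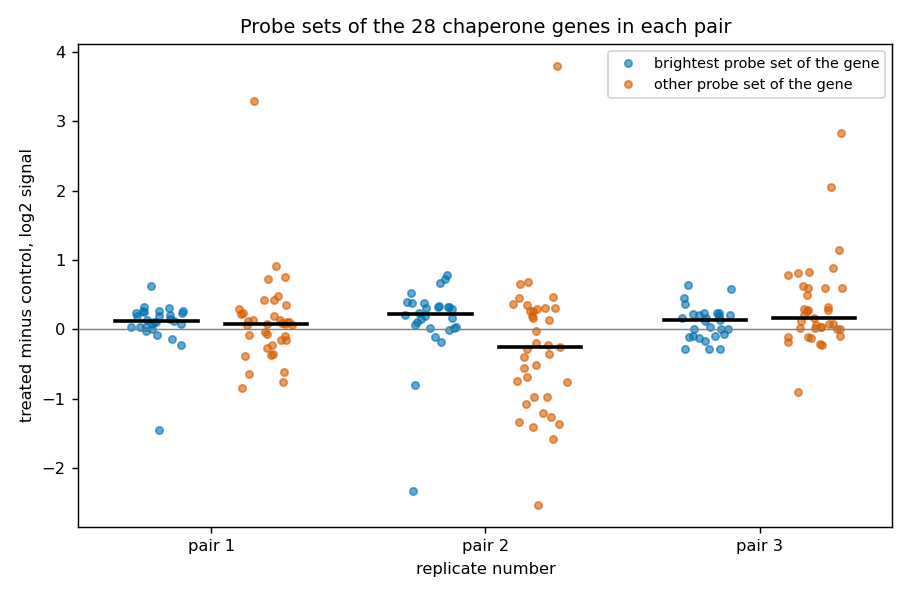
Treated minus control difference of the log2 signal in each pair, for the 28 brightest probe sets and, to their right, the 37 other probe sets that 17 of these genes have, with black bars for medians. In pair 2 the medians are 0.22 for the brightest and −0.25 for the others, while both lie above 0 in pairs 1 and 3.

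Of 109 other genes of the folding pathways, grouped by role, 92 were measured and 63 were above 0, with a median log2 fold change of 0.08. Of the brightest probe sets of named genes 55.5% were above 0, with a median of 0.03. Among those with a mean log2 signal of at least 9 it was 62.3%, with a median of 0.05. The counts above 0 in the single lists below stand against the same shares. None of the 92 genes passed the adjusted threshold. Unadjusted limma p-values under 0.05 were found for 10 with a higher and 0 with a lower treated signal. At that threshold 5.02% of the brightest probe sets of named genes, and 7.18% of those with a mean log2 signal of at least 9, were higher. In the ER, DERL3, a derlin that takes part in ER-associated degradation, had log2 signals of 8.05, 7.89 and 7.45 in the treated retinas, against 7.32, 6.46 and 6.33 in the control retinas. All treated retinas lay above all control retinas, as they did for 4.3% of the brightest probe sets of named genes. The log2 fold change of DERL3 was 1.09 (limma adjusted p = 0.496, n = 3 pairs). MANF, a secreted factor of the ER stress response with a protective action in the mouse retina, had 0.46 (limma adjusted p = 0.536, n = 3 pairs), SELENOS, of the degradation machinery, had 0.36 and PPIB, an ER prolyl isomerase, had 0.27. Of 17 other ER folding genes 13 were above 0, and of 13 other degradation genes 9 were, with EDEM1 at −0.21 and EDEM3 at −0.32. For EDEM1 all treated retinas lay below all control retinas, as they did for 2.7% of the brightest probe sets of named genes. EDEM3 had pair differences of 0.04, −1.03 and 0.04, so that only replicate 2 was lower.

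The outputs of the unfolded protein response were mixed, with 8 of 13 above 0. CEBPB, a transcription factor, had a log2 fold change of 0.68, CHAC1, an enzyme that breaks down glutathione, 0.45, and ASNS, asparagine synthetase, 0.39, each higher in 3 of 3 pairs. In pair 3, however, the difference was only 0.04 for CEBPB and 0.02 for CHAC1. The groups did not overlap for CEBPB and ASNS. Of the transcription factors of the PERK branch, ATF4 had −0.04 and ATF3 −0.57, while DDIT3 had 0.21 and was higher in 2 of 3 pairs. TRIB3, a target of that branch, had −0.67, by a dim probe set with log2 signals of 4.98 to 6.51. ATF3 and TRIB3 were lower in 3 of 3 pairs, ATF3 with no overlap of the groups, and none of these 4 genes had an unadjusted p under 0.05. They, with EDEM3 and HSPA6, are named after their values were seen.

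In the cytosol, 10 of 20 other Hsp70, J and small heat shock proteins were above 0, among them the lens and glial small heat shock protein CRYAB at 0.28 and HSPA12A at 0.25. HSPA6, a strictly inducible Hsp70 in humans, had −0.07. Of 10 other Hsp90 co-chaperones 7 were above 0, and of 12 subunits of the chaperonin CCT and of prefoldin 9 were, between −0.11 and 0.24. All 7 other mitochondrial chaperones and proteases were above 0, with CLPP, a matrix protease, at 0.43. On the deposited values, the replicate 1 pattern was found in 7 of the 20 and in 5 of the 10 cytosolic genes, and in 0 of the 12 chaperonin and prefoldin subunits. It was also found in 5 of 17 other ER folding genes and in 3 of 13 other degradation genes. Of the brightest probe sets of named genes 22.3% had it, and 17.5% of those with a mean log2 signal of at least 9. The replicate term passed the threshold in 8 of the 20, 7 of the 10 and 4 of the 12, and in 5 of those 17 and 5 of those 13. The shares for that term were 16.3% and 28.4% in the same 2 sets of probe sets. Cytosolic and ER genes were thus less far apart in these wider lists than among the listed chaperones.

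**Figure D5:**
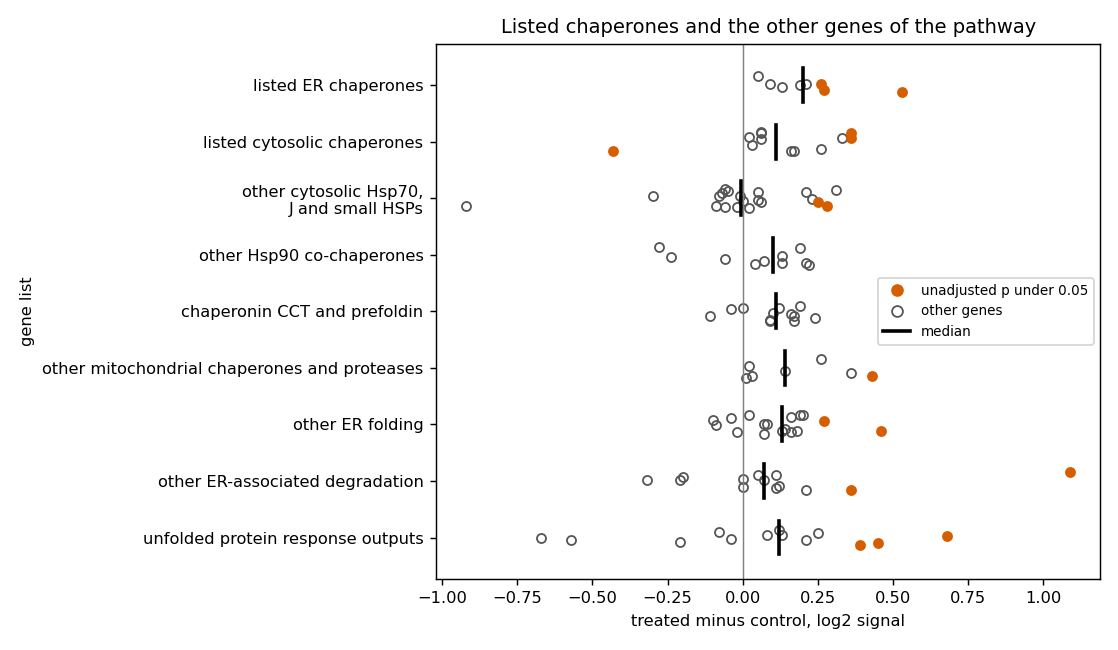
Treated minus control difference of the log2 signal for the listed ER and cytosolic chaperones and for 7 lists of other genes of the pathway, 1 point per gene with bars for medians. Filled points had an unadjusted p under 0.05, and DERL3, at 1.09, lies farthest to the right.

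The tissue held more than 1 cell type, and in bulk RNA fewer cells of a type and less RNA per cell cannot be told apart. The summed linear signal of 6 rod markers was 153200 to 194000 in treated and 181400 to 210000 in control retinas, and that of 2 oligodendrocyte markers was 89.62 to 151 in treated and 77.13 to 124.9 in control retinas. In the treated retinas 0 of 6 rod markers were above 0, and GFAP, the marker of reactive glia, had a log2 fold change of 2.14 (limma adjusted p = 0.0303, n = 3 pairs). The summed linear signal of 4 astrocyte and reactive glia markers, GFAP among them, was 28330 to 46910 in treated and 21360 to 27020 in control retinas. Beside GFAP, this list had 0.17 for VIM, 0.17 for S100B and 0.06 for SERPINA3, each with overlap of the groups. The sum of 7 microglia and macrophage markers, 6 of them above 0, was 2519 to 2831 in treated and 1988 to 2400 in control retinas. Of 4 blood markers, LYZ, which macrophages also express, had a log2 fold change of 1.27 and the leukocyte marker PTPRC 0.97, while the red cell genes HBB and ALAS2 had 0.28 and −0.18, and HBB was higher in 2 pairs and lower in replicate 2. All 3 retinal ganglion cell markers were above 0, with 0.36 for POU4F2, 0.41 for RBPMS and 0.10 for THY1. The Müller glia markers were split, with 0.58 for SLC1A3, 0.01 for DKK3, −0.28 for GLUL and −0.45 for RLBP1. These differences ran beside those of the chaperone genes, and their part in them was not tested.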

How the data were processed

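Signals of 1-colour Affymetrix Rhesus Macaque arrays, 1 array per retina, were summarised by MAS 5.0 in GeneSpring, and the authors deposited them as log2 values. Signals below 1 sit at a log2 value of 0, and no step between arrays was added.

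For each of 52024 probe sets, treated and control retinas were compared within replicates by limma (version 3.58.1, R 4.3.3): lmFit took group and a replicate block, after the paired test of the methods, and eBayes a variance trend. Arrays of the same number had correlated deviations from the group means (0.357, 0.137 and 0.161, against −0.243 to 0.104 for different numbers). p-values were adjusted by Benjamini-Hochberg over all probe sets, and the replicate term was tested by the model's F test. The number of arrays limits the precision, and each monkey gave 1 pair.

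Symbols came from the platform annotation, updated by gene identifier (98.6% of named probe sets found). Of the probe sets, 24956 had 1 symbol, and 361 with several were not named. Genes with values for every retina were those past the threshold, up to 6 with the largest moderated statistic on either side of 0, and HSPA8, HSP90AA1, HSP90B1, HSF1 and XBP1. DERL3 and less bright probe sets were added after their values were seen. Members and lists were chosen with earlier results of these data known. The alternatives were median centring, quantile normalization, a minimum mean log2 signal of 5, an offset of 32, no trend, no block, the methods' t-test, the mean of all probe sets of a gene and leaving out each pair. The fit was tested on simulated data. Python 3.11.15 with matplotlib 3.10.9 drew the figures.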

Additional observations from a re-analysis of the deposited data

How the results depend on the processing

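With 3 pairs the intervals of most chaperone genes reached 0, and dim probe sets such as that of ERN1 had the widest. The count of chaperone genes at an adjusted p under 0.05 was 0 in every alternative run. The count higher at an unadjusted p under 0.05, 6 in the paired model, was 0 without the replicate block, 0 without the trend and 3 by the methods' t-test, and lay between 1 and 5 with 1 pair left out. It was 6 after median centring, 7 after quantile normalization, 6 with the offset and 5 with the minimum signal. The count lower, 1, became 0 without the replicate block, without the trend, after median centring and by the methods' t-test. With median centring the cytosolic median was 0.21 and the ER median 0.30. The cytosolic minus ER difference lay between −0.13 and −0.06 with 1 pair left out. In this balanced design, leaving out the block or the trend, or requiring a minimum signal, cannot change a log2 fold change. Among the 12 listed chaperone genes whose brightest probe set is given in every retina, 109 of 115 values kept their sign, a count that includes these fixed values. The others were HSF1 (0.07 after median centring, and −0.21 to 0.10 with 1 pair left out, positive without replicates 1 or 3), HSPA8 (−0.03 to 0.12, negative without replicate 2) and HSP90B1 (−0.09 to 0.22, negative without replicate 2, and −0.44 as the mean of its probe sets). As the mean of all probe sets of a gene, HSPH1 was 0.55, PDIA4 0.44 and XBP1 0.44. The HSPH1 mean includes a dim probe set at 1.93, whose control values were 0 in replicates 2 and 3. That of PDIA4 includes a dim one at 1.32, with pair differences of 3.29, −1.41 and 2.06. The HSP90B1 mean includes a dim one at −0.93. DERL3 lay between 0.89 and 1.27 and the second probe set of HSPB8 between 0.50 and 0.78 in the same alternatives, run for both after their values were seen, and neither passed the adjusted threshold. The count of cytosolic genes highest in replicate 1, examined under 2 scalings chosen after seeing the data, was 2 after median centring and 12 after quantile normalization, against 11, and that of ER genes was 0 and 1, against 1.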
